A study of Mus musculus with 20 samples.

Results

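The expression of 40 cell cycle and mitosis genes was followed in the CAR and PaS stromal cells of mouse marrow, from mice with a floxed Ebf1 gene and from controls. The genes were taken by symbol from the 12 deposited RNA tables, and all 40 were found among the 24347 genes of each table. They fall into 17 S phase genes, which prepare and carry out DNA replication, and 23 mitotic genes, which condense, align and separate the chromosomes. CXCL12-abundant reticular (CAR) cells were sorted from bone marrow as PDGFRα+Sca1- and PaS cells as PDGFRα+Sca1+, in both cases after CD45, CD31 and lineage (Lin) positive cells had been left out. The wt groups carry Ebf1+/+;Prx1+/cre and the ko groups Ebf1fl/fl;Prx1+/cre, all in the C57BL/6 strain, which gives 4 groups of 3 libraries, called CAR wt and CAR ko, PaS wt and PaS ko here. Prx1-cre, present in all 4 groups, is active in limb bud mesenchyme and its descendants. The age of the mice, and whether each library is 1 animal or a pool, are not given in the sources used here, and the spread that the p-values rest on, between these libraries, may be technical. The 8 ATAC-seq samples of the series, of other genotypes (Ebf1+/+ and Ebf1-/-), were not analysed here.

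Levels are given in FPKM (fragments mapped to a gene, divided by its length in kilobases and by the size of the library), a scale that lets levels of different genes be set side by side. The libraries summed to 491801 to 526074 FPKM, with 11863 to 12295 genes at 1 FPKM or more. The PaS wt library of replicate 1 listed 24.6% of genes at 0, the fewest of the 12. Differences are log2 fold changes of FPKM + 1 with their standard errors (SE), tested with limma over 12938 genes. The added 1 understates the fold change of low genes. A gene counts as called where its p, adjusted by the Benjamini-Hochberg method, is under 0.05, and "rose" and "fell" are used of called genes. Ebf1 itself was at 46.8 to 48.9 FPKM in CAR wt, 56.0 to 59.8 in CAR ko, 50.5 to 62.1 in PaS wt and 60.7 to 65.0 in PaS ko. These levels of the whole gene are no lower in ko, and they do not check the labels where only part of a gene is deleted. Ly6a, which encodes the sort marker Sca1, had 4.66 ± 0.815 FPKM (SD, n = 3) in CAR wt and 1963 ± 218 in PaS wt, and Pdgfra had 57.9 ± 2.77 and 142 ± 6.64. Ptprc, which encodes CD45, was not at 0, with 6.46 ± 1.36 and 11.8 ± 2.66. The CAR cell gene Cxcl12 had 13251 ± 377 FPKM in CAR wt and 4277 ± 84.8 in PaS wt.

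Proliferating cells copy their DNA in S phase and divide it in M phase, and the genes for each step are switched on in turn. E2F factors drive the genes of the first wave, such as the MCM helicase and the enzymes of nucleotide supply. The MuvB complex with B-MYB and FOXM1 drives the second wave, such as the mitotic cyclins and kinesins, through a promoter element called the cell cycle genes homology region (CHR), often beside CCAAT boxes bound by NF-Y. CAR cells and PaS cells are regarded as mostly quiescent in adult marrow, while blood precursors around them divide often.

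The promoters of the 2 gene groups carry different letters, and 6 are printed here for members described below. RefSeq promoters of build GRCm38.p6, running from 250 bases before to 50 bases after the gene start, matched 33 of the 40 members, with 16 promoters of 14 S phase genes and 20 promoters of 19 mitotic genes. Letters were searched on both strands: CCAAT for the NF-Y box, TTTGAA and TTCGAA for the CHR, and TTTGGCGC, TTTCGCGC and TTCCCGC for E2F. CHR letters were in 16 of 20 mitotic promoters (80%) and 2 of 16 S phase promoters (12.5%), against 19.2% of 32851 promoters of the same length. E2F letters were in 10 of 16 S phase promoters (62.5%) and 1 of 20 mitotic promoters (5%), that of Cdk1, against 5.33% of all. CCAAT was in 18 of 20 mitotic and 11 of 16 S phase promoters, against 37.4% of all. Ccne2, Mcm4, Gins2, Ccna2, Aurkb, Kif20a and Tpx2 had no entry. These shares describe the letters and show no binding. The plot of motif shares gives these percentages.

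**Figure D1:**
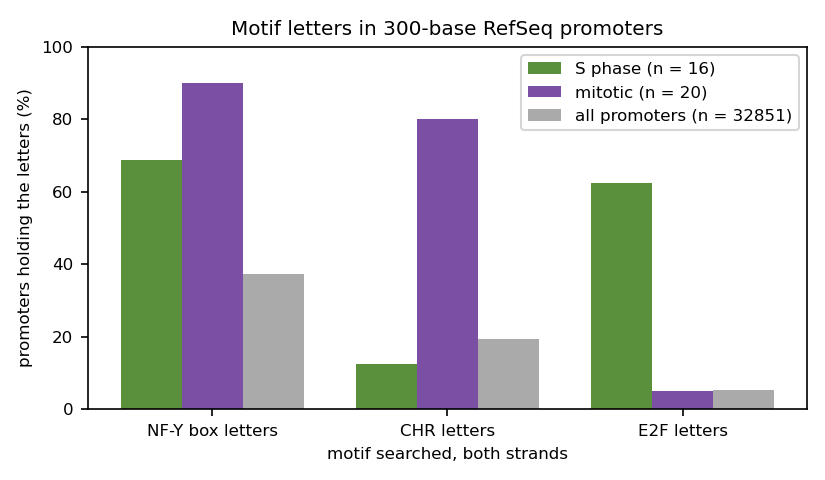
Share of RefSeq promoters (y axis, %) that hold the letters of the NF-Y box, the CHR and E2F (x axis), for 16 S phase promoters, 20 mitotic promoters and all 32851 promoters. CHR letters are in 80% of mitotic and 12.5% of S phase promoters, and E2F letters in 5% and 62.5%.

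Each sequence below is the 150 bases before the gene start, 5′ to 3′ on the gene's strand, with the searched letters of either strand in capitals. Apart from Birc5, which was added separately, members were printed only where E2F letters (S phase) or CHR letters (mitotic) lie in these bases. Their presence here was therefore set by the choice. Mcm6 and Rrm1 show E2F letters, Ube2c, Cdk1 and Cdc20 show CHR letters, and Birc5 shows neither in this window. Within the Mcm6 run of 12 capitals, TTTGGCGC and the reverse complement of TTTCGCGC overlap.
Mcm6 (GRCm38.p6, chr1:128359706-128359855, minus strand): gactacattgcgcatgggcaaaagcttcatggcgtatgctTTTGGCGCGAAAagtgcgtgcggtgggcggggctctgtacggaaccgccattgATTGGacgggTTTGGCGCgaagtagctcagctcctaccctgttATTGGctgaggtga
Rrm1 (GRCm38.p6, chr7:102441545-102441694, plus strand): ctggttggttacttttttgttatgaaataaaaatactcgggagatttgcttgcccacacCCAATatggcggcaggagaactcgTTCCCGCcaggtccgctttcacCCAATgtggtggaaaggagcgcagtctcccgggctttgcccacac
Ube2c (GRCm38.p6, chr2:164769779-164769928, plus strand): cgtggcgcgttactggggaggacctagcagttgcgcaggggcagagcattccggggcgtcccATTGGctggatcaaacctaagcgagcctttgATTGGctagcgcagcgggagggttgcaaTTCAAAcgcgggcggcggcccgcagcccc
Cdk1 (GRCm38.p6, chr10:69352913-69353062, minus strand): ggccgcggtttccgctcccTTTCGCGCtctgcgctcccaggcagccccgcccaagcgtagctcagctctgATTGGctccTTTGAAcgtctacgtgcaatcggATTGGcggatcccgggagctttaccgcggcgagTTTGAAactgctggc
Cdc20 (GRCm38.p6, chr4:118437344-118437493, minus strand): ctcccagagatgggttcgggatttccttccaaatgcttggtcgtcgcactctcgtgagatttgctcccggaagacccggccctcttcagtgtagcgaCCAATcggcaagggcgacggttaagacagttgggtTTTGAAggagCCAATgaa
Birc5 (GRCm38.p6, chr11:117849087-117849236, plus strand): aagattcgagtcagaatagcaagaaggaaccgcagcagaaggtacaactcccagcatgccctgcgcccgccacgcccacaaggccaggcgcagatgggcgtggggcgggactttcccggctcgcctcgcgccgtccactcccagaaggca

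In CAR cells most of the gene set fell in ko libraries, with similar medians in both phases. Of the 40 members, 25 fell and none rose, where 5.74% of all tested genes were called lower and 6.51% higher. The 17 S phase genes gave 12 of these calls and the 23 mitotic genes 13. These counts hold Cenpf, which passed the filter on low values only through the CAR wt libraries and so had to differ. Without it, 24 of 39 members and 12 of 22 mitotic genes fell. The median log2 fold changes of the 17 S phase and the 23 mitotic genes were -0.50 and -0.49, beside 0.01 over all tested genes. All 40 had a negative log2 fold change, from -0.84 to -0.04, and in 33 every ko library lay below every wt library (32 of 39 without Cenpf), against 14% of all tested genes. The summed level of the S phase genes was 418, 373 and 379.8 FPKM in CAR wt and 276, 275 and 279 in CAR ko. The mitotic genes summed to 369, 340.2 and 325 FPKM in CAR wt and 219, 232 and 236 in CAR ko. In both sums the ko libraries lay close together, and all below the lowest wt library.

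**Figure D2:**
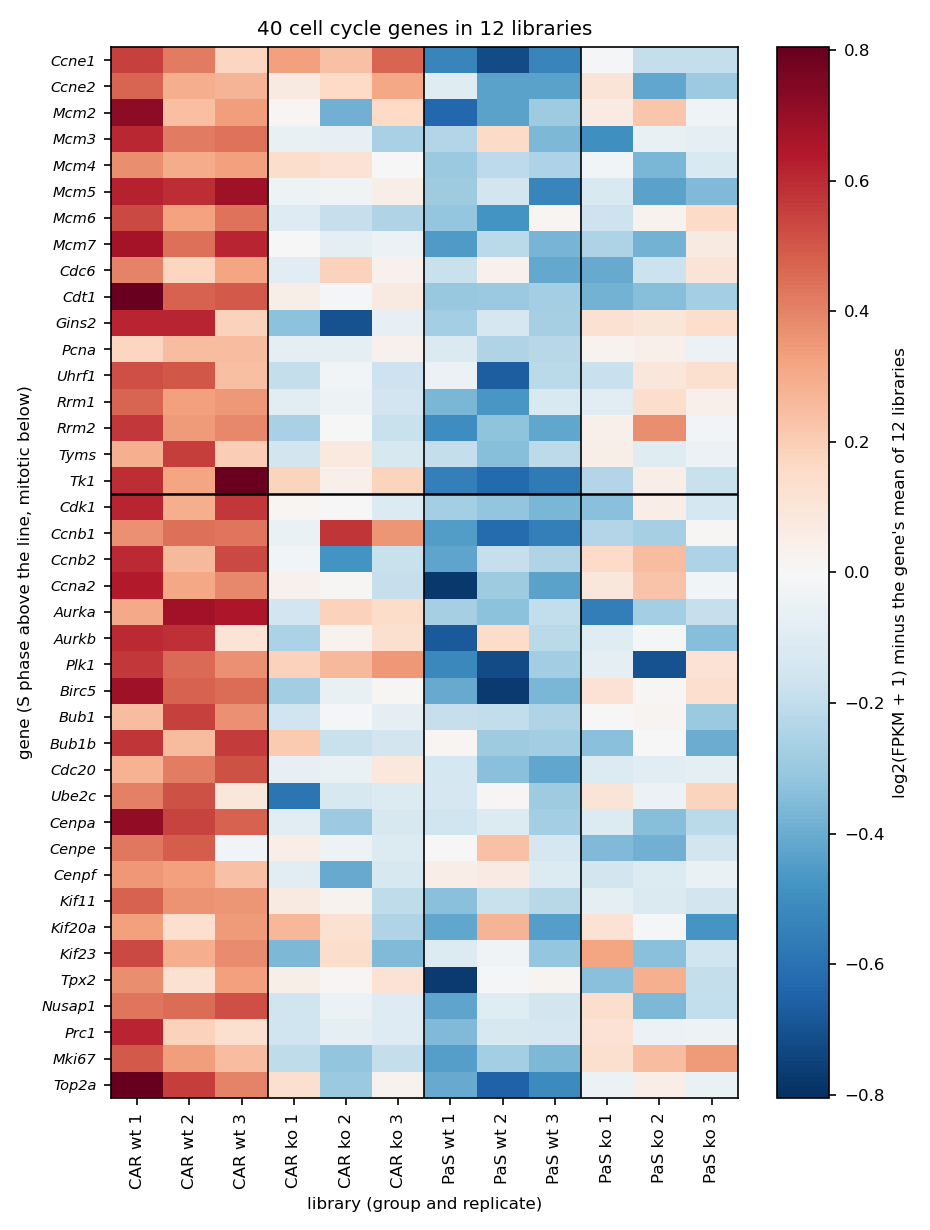
log2(FPKM + 1) of each gene minus its mean over the 12 libraries (colour), with 40 genes in rows (17 S phase above the line, 23 mitotic below) and libraries in columns. CAR wt columns are the reddest and PaS wt columns the bluest. The group mean was highest in CAR wt for 40 of 40 genes (39 of 39 without Cenpf).

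Among the S phase genes, most of the replicative helicase fell. MCM2 to MCM7 form the ring that unwinds DNA at the fork, and 5 of the 6 genes fell. Mcm5 had 24.6, 24.1 and 25.8 FPKM in CAR wt and 15.2, 15.3 and 16.2 in CAR ko (log2 fold change -0.64, SE 0.11, adjusted p = 0.0013). Mcm6, the most abundant of the 6, had 56.7, 48.9 and 52.9 FPKM in wt and 36.1, 34.1 and 32.7 in ko (-0.61, SE 0.12, adjusted p = 0.0024). Mcm7 had 20.6, 17.5 and 19.8 FPKM in wt and 12.6, 11.8 and 12.1 in ko (-0.62, SE 0.12, adjusted p = 0.0033). For these 3 genes the wt and ko libraries did not overlap. Mcm3 fell by 0.62 and Mcm2 by 0.50 on the log2 scale, and Mcm4 was not called (-0.25, adjusted p = 0.10).

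Of the 5 genes that license origins and build the fork, 4 fell. Gins2, a subunit of the GINS complex that activates the helicase, showed the lowest log2 fold change of the 40 members. It had 14.6, 14.6 and 10.6 FPKM in CAR wt and 7.09, 5.26 and 8.72 in CAR ko (-0.84, SE 0.16, adjusted p = 0.0020). Cdt1, which loads the MCM ring, had 13.7, 10.8 and 10.9 FPKM in wt and 7.76, 7.41 and 7.92 in ko (-0.55, SE 0.12, adjusted p = 0.0052). Pcna, the sliding clamp of the polymerases, changed less, with 34.8, 36.6 and 36.7 FPKM in wt and 29.2, 29.1 and 31.5 in ko (-0.26, SE 0.07, adjusted p = 0.030). Uhrf1, which maintains DNA methylation behind the fork, fell by 0.55 on the log2 scale. Cdc6, the partner of Cdt1 in licensing, was not called (-0.25, adjusted p = 0.39) at a level of 5.22 ± 0.489 and 4.23 ± 0.494 FPKM.

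Of the 4 genes of nucleotide supply, 3 fell. Rrm2, the S phase subunit of ribonucleotide reductase, had 65.2, 55.6 and 57.2 FPKM in CAR wt and 36.2, 43.8 and 38.4 in CAR ko (-0.58, SE 0.11, adjusted p = 0.0020). Its partner subunit Rrm1 had 35.8, 32.4 and 32.9 FPKM in wt and 23.96, 24.9 and 22.9 in ko (-0.48, SE 0.10, adjusted p = 0.0042). Thymidine kinase Tk1 had 11.6, 9.41 and 13.5 FPKM in wt and 8.44, 7.59 and 8.43 in ko (-0.44, SE 0.14, adjusted p = 0.045). Thymidylate synthase, Tyms, was not called (-0.41, adjusted p = 0.055).

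The E cyclins, which open S phase, were the S phase genes that differed least in CAR cells. Ccne1 had 21.4, 19.5 and 16.3 FPKM in CAR wt and 18.2, 17.1 and 20.1 in CAR ko (-0.04, SE 0.11, adjusted p = 0.90), and the groups overlapped. Ccne2 had 9.22, 8.05 and 7.94 FPKM in wt and 6.78, 7.27 and 8.17 in ko (-0.16, SE 0.15, adjusted p = 0.57), again with overlap.

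The mitotic engine is cyclin-dependent kinase 1 with its A and B cyclins. Ccnb2 had 30.99, 24.3 and 29.5 FPKM in CAR wt and 19.8, 14.1 and 17.6 in CAR ko (-0.69, SE 0.14, adjusted p = 0.0045). Cdk1 had 12.1, 9.498 and 11.8 FPKM in wt and 7.69, 7.59 and 6.94 in ko (-0.52, SE 0.13, adjusted p = 0.015). Ccna2 had 31.6, 24.98 and 26.4 FPKM in wt and 20.4, 20.1 and 17.5 in ko (-0.49, SE 0.13, adjusted p = 0.019). These 3 fell without overlap of the libraries. Ccnb1 did not follow them: its libraries overlapped, at 5.01, 5.36 and 5.29 FPKM in CAR wt and 3.498, 5.96 and 4.97 in CAR ko (-0.12, adjusted p = 0.72).

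Survivin, encoded by Birc5, is the chromosomal passenger that guides Aurora B. Birc5 had 63.97, 55.4 and 54.4 FPKM in CAR wt and 32.4, 37.9 and 39.8 in CAR ko (-0.65, SE 0.11, adjusted p = 0.0011). Aurka, the spindle pole kinase, had 10.6, 14.01 and 13.7 FPKM in wt and 7.43, 9.65 and 9.38 in ko (-0.49, SE 0.14, adjusted p = 0.035). Aurkb itself had 11.5, 11.4 and 7.89 FPKM in wt and 5.92, 7.42 and 8.03 in ko (-0.47, SE 0.20, adjusted p = 0.15). Both Birc5 and Aurka fell, while the Aurkb groups overlapped at the lowest wt library and the call was not made. Polo-like kinase Plk1 was at 6.56, 5.98 and 5.56 FPKM in wt and 4.79, 5.0995 and 5.47 in ko, with no overlap and no call (-0.20, adjusted p = 0.58).

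The spindle checkpoint holds the anaphase-promoting complex until chromosomes are attached. Ube2c, the ubiquitin-conjugating enzyme of that complex, had 66.2, 71.3 and 53.02 FPKM in CAR wt and 32.8, 45.5 and 46.1 in CAR ko (-0.61, SE 0.13, adjusted p = 0.0061). Its activator Cdc20 had 13.8, 15.3 and 16.5 FPKM in wt and 10.7, 10.8 and 11.998 in ko (-0.41, SE 0.11, adjusted p = 0.019). The checkpoint kinase Bub1 had 3.04, 4.001 and 3.39 FPKM in wt and 2.05, 2.37 and 2.23 in ko (-0.47, SE 0.15, adjusted p = 0.053). The libraries of all 3 were apart, but only Ube2c and Cdc20 were called, and Bub1b missed the threshold too (-0.50, adjusted p = 0.061).

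At the centromere, Cenpa had the smallest p of the 40 members. This histone H3 variant marks where the kinetochore forms. Cenpa had 27.5, 24.4 and 23.2 FPKM in CAR wt and 15.3, 13.2 and 14.95 in CAR ko (-0.75, SE 0.10, adjusted p = 0.00015). Cenpf, the lowest member, had 1.43, 1.401 and 1.25 FPKM in wt and 0.801, 0.443 and 0.748 in ko (-0.51, SE 0.16, adjusted p = 0.0497). As it passed the filter through the 3 CAR wt libraries alone, its call supports nothing. The kinetochore motor Cenpe had 2.62, 2.78 and 1.66 FPKM in wt and 1.799, 1.63 and 1.51 in ko (-0.33, SE 0.18, adjusted p = 0.27).

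Of the 6 genes of kinesins and spindle proteins, 2 fell. Nusap1, a microtubule bundling protein of the spindle, had 12.3, 12.5 and 13.2 FPKM in CAR wt and 7.84, 8.57 and 8.17 in CAR ko (-0.57, SE 0.14, adjusted p = 0.011). Kif11, the kinesin that pushes the spindle poles apart, had 7.17, 6.56 and 6.52 FPKM in wt and 5.18, 5.01 and 4.12 in ko (-0.43, SE 0.13, adjusted p = 0.037). Kif23, a kinesin of the central spindle, had 5.65, 4.64 and 4.99 FPKM in wt and 2.59, 4.07 and 2.599 in ko (-0.59, SE 0.19, adjusted p = 0.054). The Kif23 libraries did not overlap, but the call was not made. Prc1, Tpx2 and Kif20a had log2 fold changes of -0.42, -0.22 and -0.22 and adjusted p of 0.056, 0.57 and 0.58.

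Both genes of chromosome structure fell. Mki67, which encodes the proliferation antigen Ki-67 that coats mitotic chromosomes, had 7.26, 6.41 and 5.96 FPKM in CAR wt and 4.09, 3.71 and 4.14 in CAR ko (-0.60, SE 0.13, adjusted p = 0.0058). Top2a, the topoisomerase that untangles sister chromatids, had 18.1, 15.1 and 13.4 FPKM in wt and 10.9, 7.87 and 10.1 in ko (-0.64, SE 0.14, adjusted p = 0.0056).

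The 25 members called in CAR cells had a median of 13.1 FPKM over the 12 libraries, and 2 of them were under 5 FPKM. The 15 not called had a median of 4.64 FPKM, with 9 under 5 FPKM. Without any single CAR library, 15 of the 25 calls held. Those lost without at least one were Mcm2 (adjusted p up to 0.19), Pcna (up to 0.105), Uhrf1 (up to 0.12), Tk1 (up to 0.19), Cdk1 (up to 0.068), Ccna2 (up to 0.093), Aurka (up to 0.15), Cdc20 (up to 0.085), Kif11 (up to 0.16) and Cenpf (up to 0.20). Every one of the 6 CAR libraries ended some of these calls, and Kif11 was lost without any of them. With no filter on low values 18 members were called: Mcm2, Mcm3, Uhrf1, Tk1, Ccnb2, Ccna2, Aurka and Ube2c were lost and Bub1 was gained. CAR wt replicate 1 was the highest wt library for 27 of 40 members, against 30.2% of all tested genes, and without it 17 members were called.

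Markers of blood cells fell beside the cell cycle genes in CAR ko, in spite of the gates on CD45, CD31 and lineage. In a bulk library, fewer cells of a type and less RNA per cell cannot be told apart. All 12 neutrophil lineage markers tested fell, and their summed level was 10162 to 11745 FPKM in wt against 4572 to 5171 in ko. Of the 12 erythroid markers, 8 fell and none rose, with sums of 3714 to 4365 FPKM in wt and 2217 to 2465 in ko. All 8 tested B precursor and lymphoid markers fell, and the list summed to 101 to 104 FPKM in wt and 35.01 to 43.2 in ko. Of the 8 monocyte and macrophage markers, 6 fell, with sums, mostly of Lyz2, of 458 to 573 FPKM in wt and 219 to 237 in ko. Of these markers, Cd3e alone was listed at 0, in 4 CAR libraries. The 6 CAR cell markers summed to 15695 to 16490 FPKM in wt against 14784 to 17060 in ko, with 3 lower and none higher. Cxcl12 made up most of this sum, at 13251 ± 377 FPKM in wt and 13299 ± 1205 in ko. In 4 of the 6 every ko library lay below every wt library, against 14% of all tested genes. For the counts of called markers, the shares of all tested genes were 5.74% lower and 6.51% higher. Of 5 megakaryocyte markers 2 fell, and of 5 endothelial markers none was called. The part of these cells in the lower cell cycle genes was not tested.

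In PaS cells the direction was the opposite one for those members that were called. Of the 40 members, 8 rose and none fell, where 3.41% of all tested genes were called higher and 4.03% lower. The 8 were 4 S phase genes, Rrm2, Rrm1, Ccne1 and Mcm2, and 4 mitotic genes, Birc5, Mki67, Ccna2 and Top2a. The median log2 fold change was 0.22 for S phase and 0.18 for mitotic genes, beside 0.00 over all tested genes. In 16 members every ko library lay above every wt library, against 11.5% of all tested genes. In sum the S phase genes were at 223, 227 and 233 FPKM in PaS wt and 269, 288 and 279 in PaS ko. The mitotic genes summed to 192, 207 and 196 FPKM in PaS wt and 249, 242 and 242 in PaS ko. The groups did not overlap in either sum.

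Birc5 had 29.6, 22.7 and 30.4 FPKM in PaS wt and 42.9, 39.8 and 43.5 in PaS ko (log2 fold change 0.60, SE 0.11, adjusted p = 0.0023). Mki67 had 3.32, 3.86 and 3.56 FPKM in wt and 5.43, 5.96 and 6.45 in ko (0.60, SE 0.13, adjusted p = 0.0077). Ccna2 had 11.2, 16.2 and 14.6 FPKM in wt and 21.3, 23.5 and 19.7 in ko (0.60, SE 0.13, adjusted p = 0.0077). All 3 of these mitotic genes rose with every ko library above the wt libraries. Rrm2 had 30.5, 34.6 and 32.3 FPKM in PaS wt and 44.8, 56.8 and 42.9 in PaS ko (0.55, SE 0.11, adjusted p = 0.0039). Ccne1 had 9.602, 8.27 and 9.59 FPKM in wt and 14.1, 12.4 and 12.4 in ko (0.46, SE 0.11, adjusted p = 0.020). Rrm1 had 19.6, 18.2 and 23.5 FPKM in wt and 24.01, 28.4 and 26.3 in ko (0.35, SE 0.10, adjusted p = 0.041). Ccne1 was the one gene called in PaS cells that was not called in CAR cells. Top2a and Mcm2 rose by log2 fold changes of 0.51 (adjusted p = 0.032) and 0.53 (adjusted p = 0.043).

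The other 32 members were not called in PaS cells. Cenpa, the member with the smallest p in CAR cells, had 14.6, 15.1 and 13.4 FPKM in PaS wt and 15.2, 12.7 and 13.99 in PaS ko (-0.04, SE 0.10, adjusted p = 0.89). Mcm5 had 12.7, 14.01 and 10.5 FPKM in wt and 14.3, 11.4 and 12.02 in ko (0.02, SE 0.11, adjusted p = 0.96). Cenpe had the lowest log2 fold change of the 40 in PaS cells, -0.33 (adjusted p = 0.34), and its ko libraries, at 1.11, 1.06 and 1.44 FPKM, were all below the wt libraries at 1.69, 2.17 and 1.46 FPKM.

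Of these 8 calls, 4 held without each single PaS library. With no filter on low values the count was 3, and Ccna2, Ccne1, Mcm2, Rrm1 and Top2a were lost. Without PaS wt replicate 2 the count was 4, and without any one PaS ko library it was 5. The 4 that held were Birc5, Rrm2, Mki67 and Ccna2. Ccne1 was lost without PaS wt replicate 2 or PaS ko replicate 1 (adjusted p up to 0.093). Rrm1 was lost without PaS wt replicate 1 or 2 or PaS ko replicate 2 or 3 (up to 0.17). Mcm2 was lost without any PaS library other than PaS wt replicate 3 (up to 0.17), and Top2a without any other than PaS wt replicate 1 (up to 0.12).

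Blood markers did not move as one in PaS ko. Of the 12 neutrophil lineage markers, 11 fell, with sums of 21833 to 24578 FPKM in wt against 6808 to 6969 in ko. Of the 12 erythroid markers, 6 rose and none fell, and the list summed to 3985, 3306 and 3718 FPKM in PaS wt and 4175, 3915 and 4262 in PaS ko, where the groups overlapped. Hemoglobin genes make up most of this sum. The 9 markers other than hemoglobin, a grouping made after the values were seen, summed to 308 to 325 FPKM in wt and 508 to 562 in ko. Among them, named after their values were seen, Car1, a carbonic anhydrase of red cell precursors, had 38.9, 42.8 and 41.1 FPKM in wt and 79.8, 87.5 and 95.1 in ko, and Klf1, their master regulator, had 14.6, 15.4 and 14.04 FPKM in wt and 22.1, 27.8 and 24.1 in ko. Alas2, the heme synthesis enzyme of red cell precursors, was not called (0.03, adjusted p = 0.91). Car1 and Car2 make up most of the sum of these 9. Hba-a1 and Hba-a2 are near-identical and share reads, and Hba-a2 swung between near 0 and 227 FPKM within PaS ko. Of 8 tested B precursor and lymphoid markers, 1 rose, and the sums were 99.1 to 101 FPKM in wt and 111 to 139 in ko. The 8 monocyte and macrophage markers gave 3 higher and 3 lower, with sums of 1152 to 1201 FPKM in wt and 633 to 659 in ko. Lyz2 made up most of this sum, at 1019 ± 19.6 FPKM in wt and 432 ± 11.5 in ko. Of the 8, 5 had a positive log2 fold change and 3 a negative one. Among the 5, C1qa had 36.3 ± 3.42 FPKM in wt and 87.7 ± 11.6 in ko. None of the neutrophil, erythroid or monocyte markers was at 0 in any library. Of 5 megakaryocyte markers 3 fell, and of 5 endothelial markers 1 fell. The 6 PaS markers gave 3 lower and none higher, with sums, mostly of Ly6a, of 3117 to 3577 FPKM in wt and 2598 to 2684 in ko. In 5 of the 6 every ko library lay below every wt library, and in 1 above. Over all tested genes these shares were 11.9% and 11.5%. For the counts of called markers, the shares of all tested genes were 3.41% higher and 4.03% lower. The part of blood precursors in the higher cell cycle genes was not tested.

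**Figure D3:**
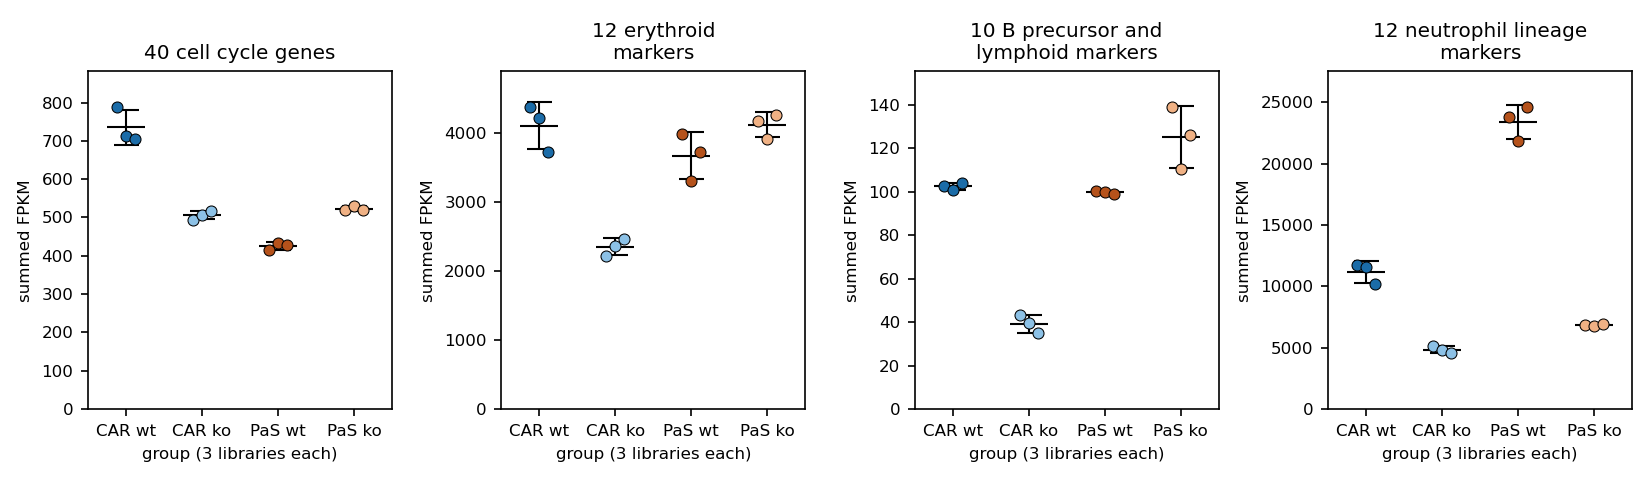
Summed FPKM (y axis, from 0) of the 40 cell cycle genes and of 3 marker lists in the 4 groups (x axis); points are libraries, bars the mean ± SD of 3. The cell cycle sum is highest in CAR wt and lowest in PaS wt, while the erythroid and the B precursor sums are lowest in CAR ko and the neutrophil lineage sum is highest in PaS wt.

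The difference between the 2 ko effects was tested directly. For 19 of the 40 members the effect was lower in CAR than in PaS cells, and for none higher, where 3.26% of all tested genes were called lower and 3.32% higher. These were 10 S phase and 9 mitotic genes. All 19 fell in CAR cells, and 7 of them also rose in PaS cells: Birc5, Rrm2, Mki67, Ccna2, Rrm1, Top2a and Mcm2. The median difference was -0.66 for S phase and -0.62 for mitotic genes on the log2 scale, beside 0.02 over all tested genes. Birc5 had the largest difference, -1.25 (SE 0.16, adjusted p = 0.00016). Mki67 had -1.20 (SE 0.18, adjusted p = 0.00082) and Rrm2 -1.12 (SE 0.15, adjusted p = 0.00030). Cenpa had -0.71 (SE 0.14, adjusted p = 0.0069); it fell in CAR cells and was not called in PaS cells.

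For the G1/S cyclins and the 6 genes of kinesins and spindle no difference was called. Ccne1 had -0.50 (SE 0.16, adjusted p = 0.087) and Nusap1 -0.65 (SE 0.19, adjusted p = 0.055). A missed threshold does not show equal effects. The 21 members with no call had a median level of 4.98 FPKM, against 16.96 FPKM for the 19 called, and 11 of the 21 were under 5 FPKM. With no filter the count was 12: Mcm2, Mcm5, Mcm6, Mcm7, Uhrf1, Cdk1, Ccnb2 and Ube2c were lost and Kif11 was gained. Calls of Uhrf1 and Cdk1 were lost without most single libraries (adjusted p up to 0.079 and 0.083), that of Cdc20 without CAR wt replicate 3, CAR ko replicate 1 or 2 or PaS wt replicate 3 (up to 0.061), and that of Mcm5 without PaS ko replicate 1 (0.051). The erythroid list showed 10 of 12 markers with a lower ko effect in CAR than in PaS cells, and the B precursor and lymphoid list 6 of 8. The monocyte and macrophage list showed 6 of 8 lower. In the neutrophil lineage list 4 of 12 were lower and 5 higher. Of 5 megakaryocyte markers none was called, and of 5 endothelial markers 1 was higher. Their part in the difference was not tested.

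**Figure D4:**
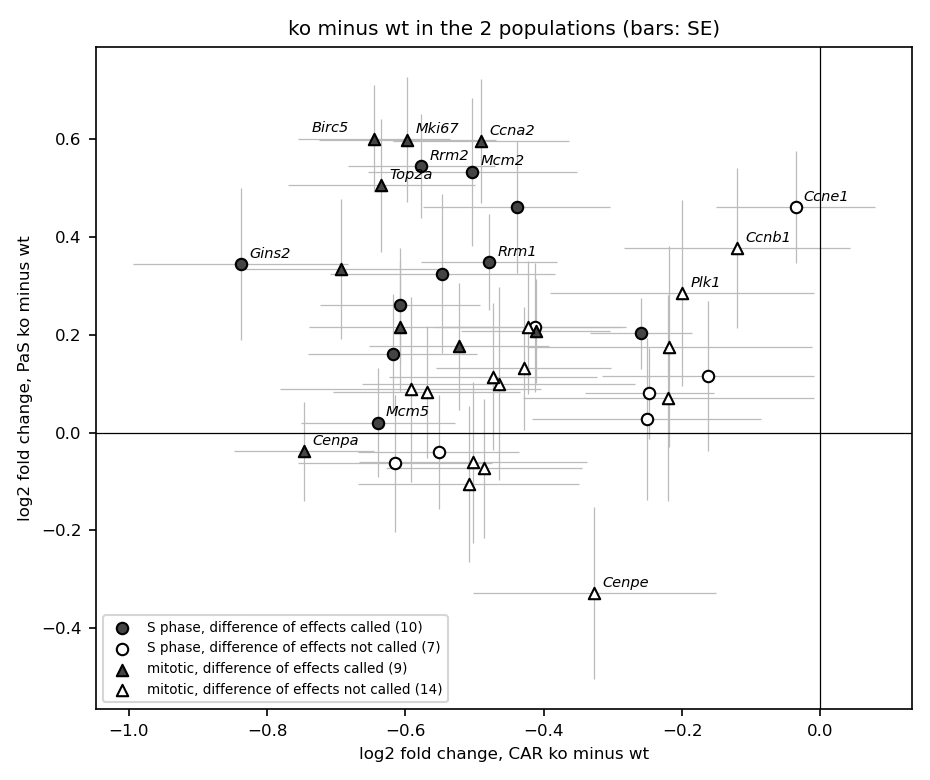
log2 fold change of ko minus wt in CAR cells (x axis) and in PaS cells (y axis) for 40 genes, with SE bars; circles are S phase and triangles mitotic genes, filled where the difference of the effects was called. All points lie left of 0, and 33 of 40 lie above 0 on the y axis.

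The 2 populations were also compared within each genotype. These comparisons share their libraries with the ko comparisons above and are not independent of them. In wt, the cell cycle genes were higher in CAR than in PaS cells for 37 of 40 members, where 20.5% of all tested genes were called higher. No member was lower, beside 22.7% of all. All 17 S phase genes and 20 of 23 mitotic genes were called higher, with median log2 differences of 0.70 and 0.69. All 3 CAR wt libraries lay above all 3 PaS wt libraries in 37 members (36 of 39 without Cenpf), against 24.4% of all tested genes. These were not quite the called ones, since Aurkb was called with an overlap and Cenpf was apart with no call. Tk1 had 11.6, 9.41 and 13.5 FPKM in CAR wt and 4.699, 4.398 and 4.63 in PaS wt (1.15, SE 0.14, adjusted p = 4.0e-06). Top2a had 18.1, 15.1 and 13.4 FPKM in CAR wt and 7.23, 5.95 and 6.67 in PaS wt (1.11, SE 0.14, adjusted p = 6.2e-06). Birc5 had a log2 difference of 1.05 (SE 0.11, adjusted p = 1.1e-06), Mcm5 of 0.95 and Ccne1 of 0.98. Kif20a, Cenpe and Cenpf were not called, at 0.46, 0.26 and 0.30 (adjusted p = 0.090, 0.25 and 0.15). The call of Aurkb was lost without PaS wt replicate 1 (adjusted p = 0.063), and Cdc6 and Kif23 were each lost without CAR wt replicate 1 or 3 or PaS wt replicate 1 or 3 (up to 0.12 and 0.098). Tpx2 was lost without any CAR wt library or PaS wt replicate 1 (up to 0.25). Of the 12 erythroid markers 8 were higher in CAR wt and none lower, and of the 12 neutrophil lineage markers 5 were higher and 6 lower. Of 8 monocyte and macrophage markers 1 was higher and 6 lower, and of 8 tested B precursor and lymphoid markers 1 was higher and 2 lower. Of 5 megakaryocyte markers 1 was lower, and all 5 endothelial markers were lower. Their part in the difference was not tested.

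In ko libraries few members differed between the populations. Of the 40 members, 5 were higher in CAR ko than in PaS ko and 3 lower, beside 17% and 19.8% of all tested genes. The median log2 difference was 0.08 for S phase and 0.05 for mitotic genes. Higher in CAR ko were Ccne1 (0.48, adjusted p = 0.0036), Cdt1 (0.37, adjusted p = 0.021), Ccnb1 (0.46, adjusted p = 0.039), Aurka (0.40, adjusted p = 0.039) and Mcm4 (0.26, adjusted p = 0.040). Lower were Mki67 (-0.48, adjusted p = 0.0076), Gins2 (-0.49, adjusted p = 0.021) and Ube2c (-0.35, adjusted p = 0.046). Ccne1 and Mki67 were called without each ko library in turn; the other 6 were lost without at least one, with counts of 5 without any single CAR ko library or PaS ko replicate 2. The test of whether the gap differs between genotypes is the difference of the ko effects given above, called for 19 members. All 8 tested B precursor and lymphoid markers were lower in CAR ko than in PaS ko, as were 6 of 8 monocyte and macrophage markers. Of 12 erythroid markers 1 was higher and 4 lower, and of 12 neutrophil lineage markers 4 were higher and 6 lower. Of 5 megakaryocyte markers 1 was lower, and all 5 endothelial markers were lower. The part of these cells in this comparison was not tested.

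Set side by side, the 4 groups took an order. The group mean was highest in CAR wt for 40 of 40 members (39 of 39 without Cenpf), against 26.5% of all tested genes. Cenpf had to be highest there, as it passed the filter on low values through the CAR wt libraries alone. The mean was lowest in PaS wt for 30 of 40, against 28% of all. CAR ko and PaS ko lay between, with CAR ko above PaS ko in 17 members and below it in 13 of these 30. For 32 of the 40 members no difference between CAR ko and PaS ko was called, beside 8169 of the 12938 tested genes. The 40 genes together made up 0.137 to 0.156 percent of all FPKM in CAR wt libraries, 0.0963 to 0.0986 in CAR ko, 0.0806 to 0.0881 in PaS wt and 0.103 to 0.108 in PaS ko. The 12 erythroid markers took another order, with sums of 4100 ± 342 FPKM in CAR wt, 2349 ± 125 in CAR ko, 3670 ± 342 in PaS wt and 4117 ± 180.2 in PaS ko, lowest in CAR ko. Without the hemoglobin genes the 9 others, grouped after their values were seen, had means of 739, 508, 316 and 542 FPKM, lowest in PaS wt. Car1 and Car2 make up most of this sum. Alas2 alone of the 9 did not have its lowest mean in PaS wt, with 46.7, 32.2, 53.6 and 55.1 FPKM in the same order of groups. The part of these cells in the members' order was not tested. Mpo, an early neutrophil granule enzyme named after its values were seen, had 502 ± 73.7, 157 ± 18.3, 149.6 ± 12.9 and 105 ± 13.2 FPKM in the same order of groups, and S100a8, a gene of later neutrophils, had 5424 ± 519, 2357 ± 179, 12011 ± 975 and 3453 ± 149 FPKM.

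S phase and mitotic genes had similar median changes in each of the comparisons above. These medians are of FPKM + 1, where the added 1 understates the change of low genes, and more of the mitotic genes were low. In CAR ko the S phase sum stood at 0.71 times its wt mean and the mitotic sum at 0.66 times. In PaS ko these ratios were 1.22 and 1.23. Per library, the mitotic sum divided by the S phase sum was 0.885, 0.911 and 0.857 in CAR wt and 0.794, 0.842 and 0.847 in CAR ko, with the ko libraries all slightly below the wt libraries. It was 0.860, 0.912 and 0.8401 in PaS wt and 0.925, 0.842 and 0.865 in PaS ko, where the groups overlapped. Single S phase genes had a median of 14.9 FPKM over the 12 libraries, from 4.12 for Cdc6 to 44.9 for Rrm2. Mitotic genes had a median of 7.50 FPKM, from 0.93 for Cenpf to 50.8 for Ube2c, and 10 of the 23 were under 5 FPKM against 1 of the 17 S phase genes. Among the role groups, the 2 E cyclins stood at 0.94 times their wt sum in CAR ko, the highest ratio of sums. The 3 centromere genes stood at 0.58 times, the lowest. Their sum was mostly Cenpa, at a mean of 25.0 of 28.7 FPKM in CAR wt, with Cenpf at 1.36. By median log2 fold change in CAR ko they were not lowest. Chromosome structure had -0.62 and the MCM helicase -0.61. The centromere median, -0.51, was the value of Cenpf, which passed the filter through CAR wt alone. In PaS ko the ratios ran from 0.94 for the centromere genes to 1.54 for the 2 genes of chromosome structure.

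**Figure D5:**
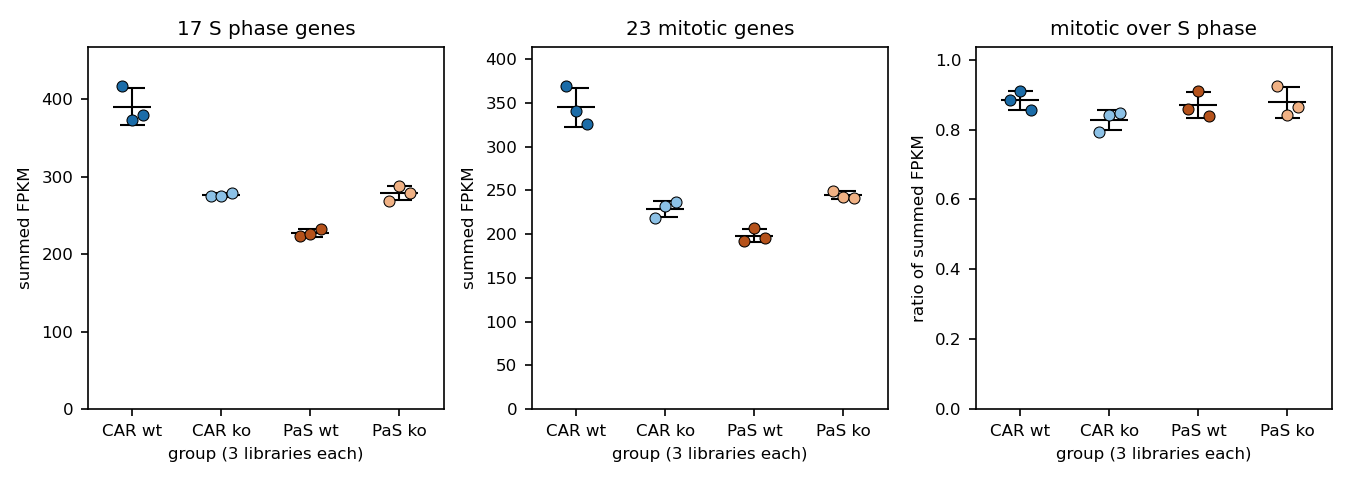
Summed FPKM of 17 S phase genes and 23 mitotic genes, and the ratio of the 2 sums (y axes, from 0), in the 4 groups (x axis); points are libraries, bars the mean ± SD of 3. Both sums are highest in CAR wt and lowest in PaS wt, and the ratio stays between 0.794 and 0.925.

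Other cell cycle genes, listed from textbook roles, were counted in the same fit. The shares of all tested genes to set beside these counts are those given above: 5.74% lower and 6.51% higher in CAR ko, 3.41% higher and 4.03% lower in PaS ko, and 20.5% higher and 22.7% lower in CAR wt than in PaS wt. Of 31 further replication genes, 12 fell and none rose in CAR ko, 2 rose and none fell in PaS ko, and 26 were higher in CAR wt than in PaS wt. Gmnn, the inhibitor of Cdt1, rose in PaS ko (0.70, adjusted p = 0.014) and had the largest difference of ko effects in this list (-1.43, adjusted p = 0.0015). It had 32.95, 23.5 and 26.2 FPKM in CAR wt, 14.9, 14.8 and 18.6 in CAR ko, 9.49, 8.32 and 10.7 in PaS wt and 18.4, 11.9 and 18.4 in PaS ko. Mcm10 also rose in PaS ko, by 0.63 (adjusted p = 0.042). In CAR ko, the dUTPase gene Dut fell by 0.53 and the polymerase delta subunit gene Pold1 by 0.70 on the log2 scale. Of 36 further mitotic genes tested, 15 fell and none rose in CAR ko, and 22 were higher and 1, Cdc25b, lower in CAR wt than in PaS wt. In PaS ko their share of calls was near that of all tested genes: 1 rose, the condensin gene Smc4 (0.37, adjusted p = 0.020), and 2 fell, Cep55 (-0.83, adjusted p = 0.011), a gene of the final cut between daughter cells, and Pttg1 (-0.34, adjusted p = 0.035), which encodes securin. Cep55 had 2.43, 2.36 and 1.35 FPKM in PaS wt and 0.7401, 0.667 and 0.671 in PaS ko. In CAR ko the passenger subunit gene Cdca8 fell by 0.62 (adjusted p = 0.0011) and Cdca3 by 0.75 (adjusted p = 0.0026). Cdc25b, a phosphatase that activates Cdk1, was lower in CAR ko than in PaS ko by 1.38 on the log2 scale (adjusted p = 3.2e-06).

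Among genes that start or brake the cycle, some were called in each direction. Of 32 tested, 2 rose and 4 fell in CAR ko (6.51% and 5.74% of all tested genes), and 4 rose and 1 fell in PaS ko (3.41% and 4.03%). The difference of the ko effects was called lower for 3, Cdkn1c, E2f4 and E2f2, and higher for none (3.26% and 3.32%). Gas1, a growth arrest specific gene first found in resting fibroblasts, rose in both, from 113, 105 and 111 to 188, 169.9 and 176 FPKM in CAR cells (0.70, adjusted p = 5.3e-06) and from 459.5, 492 and 484 to 573, 671 and 666 FPKM in PaS cells (0.41, adjusted p = 0.00097). Cyclin D2 rose in both as well: Ccnd2 had 0.40 (adjusted p = 0.0030) in CAR and 0.46 (adjusted p = 0.0011) in PaS cells. In both populations the libraries of these 2 genes were apart, and their ko effects were not called different between CAR and PaS cells (adjusted p = 0.091 for Gas1 and 0.81 for Ccnd2). Cdkn1c, the CDK inhibitor p57 of quiescent cells, went in opposite directions: it had 51.9, 50.3 and 53.4 FPKM in CAR wt, 42.9, 39.6 and 40.8 in CAR ko, 55.8, 60.6 and 54.9 in PaS wt and 68.4, 76.7 and 76.8 in PaS ko. It fell in CAR cells (-0.33, adjusted p = 0.0059), rose in PaS cells (0.37, adjusted p = 0.0036), and the difference was called (-0.70, adjusted p = 0.00054). Ccnd3, E2f4 and E2f2 fell in CAR ko, by 0.38, 0.39 and 0.65 on the log2 scale. Myc, which drives entry into the cycle, fell in PaS ko (-0.36, adjusted p = 0.0047), and the CDK inhibitor gene Cdkn2c rose there (0.50, adjusted p = 0.048). E2f7 and Cdkn2a did not pass the filter on low values.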

How the data were processed

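Poly(A)-enriched RNA of sorted CAR and PaS cells was made into SMART-Seq v4 libraries, per the labels' protocols. The deposited values are FPKM per gene, 1 table for each of 12 libraries, and TopHat2 2.0.14, Cufflinks 2.2.1, Cuffnorm 2.2.1 and build mm10 are named in the submitters' processing notes. The annotation, strand setting and filters are not given in the sources used here, so reads of overlapping genes, antisense partners and near-identical copies may be shared. FPKM keeps no total count, so the depth of each library is unknown and no counting interval is given. Ratios of low genes to CAR wt replicate 1 stepped most clearly in CAR wt replicate 2 (72 genes, 18 at the next ratio). In most other libraries the steps were not clear, and relative depth was not read from them.

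The 12938 genes that reached 1 FPKM in 3 or more of the 12 libraries were tested on log2(FPKM + 1) with limma 3.58.1 in R 4.3.3, in 1 model of 4 group means with all 12 libraries (residual df 8) and a trended prior. Tests were two-sided, and p-values were Benjamini-Hochberg adjusted over all tested genes for each of 5 contrasts. The script was tested on simulated data. Alternatives were other pseudocounts, filters, scalings, a replicate block, only the groups compared, and leaving out each library. All 40 members could be named. Full values were given for up to 3 members of each role with the smallest p in CAR ko minus wt, and up to 3 of each phase in the PaS and wt comparisons. Those of Ccnb1 and Plk1 in CAR cells, and of Cenpa, Mcm5 and Cenpe in PaS cells, were given outside this rule. Of other cell cycle lists, up to 3 genes with the smallest p per contrast were named, and Cdkn2c was added after its values were seen. The members and lists were chosen with earlier results of these data known. Promoter letters were searched with Python 3.11.15.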

Additional observations from a re-analysis of the deposited data

Results flagged for a closer look

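For 19 members the ko effect differed between the 2 populations by its own test, the interaction term of the limma model with an adjusted p under 0.05 over all 12938 tested genes. The values are the log2 fold change of ko minus wt in CAR cells less that in PaS cells. The 10 S phase genes were Rrm2 (-1.12), Rrm1 (-0.83), Gins2 (-1.18), Mcm6 (-0.87), Mcm2 (-1.04), Tk1 (-0.90), Mcm7 (-0.78), Pcna (-0.46), Mcm5 (-0.66) and Uhrf1 (-0.87). The 9 mitotic genes were Birc5 (-1.25), Mki67 (-1.20), Ccna2 (-1.09), Top2a (-1.14), Ccnb2 (-1.03), Cenpa (-0.71), Ube2c (-0.83), Cdc20 (-0.62) and Cdk1 (-0.70). All of these values were negative. Groups of 3 libraries were not searched for single outlying libraries.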

How the results depend on the processing

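No log2 fold change that was called, with or without an alternative, changed sign under it. With no filter on low values, the members called numbered 3 in PaS ko minus wt, 3 in CAR ko minus PaS ko and 12 for the difference of the ko effects, against 8, 8 and 19. They numbered 18 in CAR ko minus wt and 33 in CAR wt minus PaS wt, against 25 and 37. Calls lost this way were Cdc6, Aurkb, Ube2c, Kif23 and Tpx2 in CAR wt minus PaS wt, where Cenpf was gained, and Mcm4, Gins2, Ccnb1, Aurka and Ube2c in CAR ko minus PaS ko. With only the groups compared in the fit, 5 were called in CAR ko minus PaS ko. Leaving out 1 library gave 17 to 20 calls in CAR ko minus wt (25 with all), 4 to 8 in PaS ko minus wt, 33 to 38 in CAR wt minus PaS wt (37 with all), 5 to 8 in CAR ko minus PaS ko and 16 to 19 for the difference. Where this left an arm with 2 libraries, the spread was pooled over all groups. The replicate block gave 21, 6, 37, 9 and 17 calls in the same order. Same-numbered libraries did not clearly deviate together (correlations of -0.041 to 0.108), and different-numbered ones gave -0.099 to 0.093. With 3 libraries per group this cannot tell whether the numbers pair the samples, and the labels do not say. Depth is unknown, and 11 of the 40 members were under 5 FPKM.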
